A study of Rattus norvegicus with 8 samples.

Results

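Solute carriers are the membrane proteins, named Slc with a family number, that move sugars, amino acids, ions, metals, nucleotides, vitamins and other small molecules across cell membranes. Their members were taken from the arrays as every feature whose platform annotation gave a symbol starting with Slc and a digit, which found 272 features of 20500. After features of one symbol were averaged, these were 220 genes in 51 families, of 17402 genes or unnamed features in all. Of the families, 23 held 4 or more measured genes and 13 held 1. Among the 220 genes, Slc4a1ap encodes an adaptor protein that binds a transporter and Slc7a6os is named for its place opposite Slc7a6, so neither is a carrier although the rule takes both in.

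RIE-Ras cells are rat intestinal epithelial (RIE) cells stably transfected with a plasmid that encodes a constitutively active human H-Ras, so they are a single transfected derivative of the parental RIE line. Cells of each line were given 2 ng/ml transforming growth factor beta 1 (TGF-beta-1) for 1 hr and compared with control cells of the same line on two-channel arrays, 4 arrays of RIE-Ras and 4 of RIE. Each value is therefore a log2 ratio of TGF-beta-1 treated over control RNA, centred here on the median of its array, and it says nothing of how much of a transcript either line holds. Whether the arrays of a line stand for separate cultures is not stated in the labels, so the p-values rest on a spread between samples that may be technical.

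Carriers fall into a few working principles. Facilitators such as the Slc2 glucose transporters let a solute run down its gradient, while cotransporters such as the Slc5, Slc6 and Slc12 families drive it with sodium or chloride. Exchangers such as Slc7a5 swap one amino acid for another, and several of them reach the membrane only as a pair with the heavy chain encoded by Slc3a2. In intestinal epithelium, carriers on the luminal and basal faces take up sugars, peptides, metals and bile acids, and TGF-beta acts on the same epithelium through Smad transcription factors as an inhibitor of growth.

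The arrays were not alike. Before centring, their medians lay between 0.2016 and 0.4542. After it, the SD estimated from the median absolute deviation over all features was lowest on RIE replicate 2, at 0.24, and highest on RIE replicate 4, at 0.54. RIE-Ras replicate 1 correlated with the other 7 arrays over all features at r between -0.113 and 0.145, while RIE replicates 3 and 4 correlated with each other at 0.692. On RIE-Ras replicate 1, 13.6% of the solute carrier genes lay below -1, against 8.71% of all features on that array. On the other RIE-Ras arrays 0.455% to 1.82% of the solute carrier genes lay there, and on the RIE arrays 0% to 6.82%. None of the measured epithelial markers (Cdh1, Epcam, Krt19, Vil1), fibroblast markers (Col1a2, Col3a1, Pdgfrb) and leukocyte markers (Ptprc, Cd68, Lyz2) passed the test in either line, and ratios cannot show whether a marker is present. Col1a2, a fibroblast collagen gene, was negative on all 8 arrays, with means of -0.76 in RIE-Ras cells (adjusted p = 0.2068 in limma) and -1.71 in RIE cells (adjusted p = 0.0755). Epcam, an epithelial adhesion gene, was positive on all 8 arrays, with means of 0.47 in RIE-Ras cells (adjusted p = 0.0925 in limma) and 0.10 in RIE cells. Other markers of the same lists did not all go the same way. Col3a1 was positive on all 4 RIE-Ras arrays (mean 0.24) and averaged -0.19 in RIE cells. Pdgfrb averaged -0.33 in RIE-Ras cells and 0.04 in RIE cells. Cdh1 averaged -0.07 in RIE-Ras cells and -0.14 in RIE cells. Krt19 averaged 0.18 in RIE-Ras cells and Vil1 0.13, and each averaged 0.03 in RIE cells. The part of these markers in the results was not tested.

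**Figure D1:**
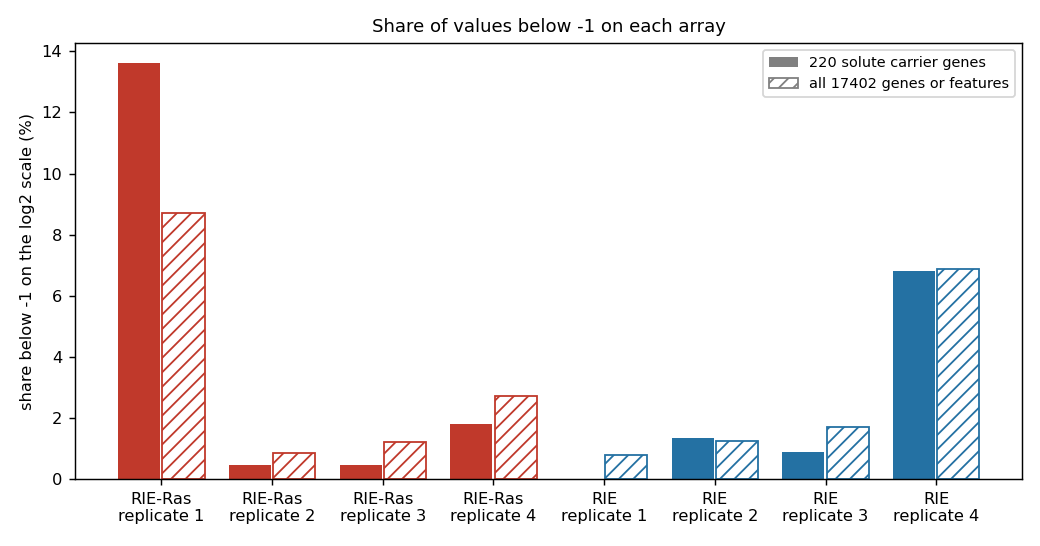
Share of values below -1 on the log2 scale (vertical axis, %) on each array, with filled bars for the 220 solute carrier genes and hatched bars for all 17402 genes or features. RIE-Ras replicate 1 has the tallest pair of bars, at 13.6% and 8.71%, followed by RIE replicate 4 at 6.82% and 6.88%.

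Since the results turn on genes whose centred ratios had opposite signs in RIE-Ras and RIE cells, and on the single gene that passed the test, the start regions of 5 of these are shown. Each runs from 250 bases before to 50 bases after the annotated start, from RefSeq on the assembly GRCr8, and 189 of the 220 genes had such an entry. Capitals mark matches to CAGACA, a short element bound by Smad proteins, or to TGANTCA, the AP-1 element, on either strand. Slc6a5 (chr1:108781303-108781602, plus strand) held 1 AP-1 match, as did Slc16a3 (chr10:106712078-106712377, plus strand), and Slc2a6 (chr3:30753238-30753537, minus strand) held 1 CAGACA match. Slc35c2 (chr3:174442733-174443032, minus strand) and Slc7a6 (chr19:50993256-50993555, plus strand) are printed beside them as the genes with the smallest p between the lines, with neither match.
Slc6a5: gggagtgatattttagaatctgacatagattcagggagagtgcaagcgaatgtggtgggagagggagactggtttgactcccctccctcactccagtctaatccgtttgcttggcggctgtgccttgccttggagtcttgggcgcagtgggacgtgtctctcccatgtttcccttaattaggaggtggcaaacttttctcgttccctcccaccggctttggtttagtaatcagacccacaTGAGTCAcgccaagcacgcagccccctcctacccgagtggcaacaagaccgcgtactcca
Slc16a3: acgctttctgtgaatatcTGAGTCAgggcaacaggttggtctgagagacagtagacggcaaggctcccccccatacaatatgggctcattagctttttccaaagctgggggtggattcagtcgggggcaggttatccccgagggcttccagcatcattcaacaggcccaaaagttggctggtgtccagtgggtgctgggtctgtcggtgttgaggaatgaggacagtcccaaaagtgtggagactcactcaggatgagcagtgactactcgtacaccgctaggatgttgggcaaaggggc
Slc2a6: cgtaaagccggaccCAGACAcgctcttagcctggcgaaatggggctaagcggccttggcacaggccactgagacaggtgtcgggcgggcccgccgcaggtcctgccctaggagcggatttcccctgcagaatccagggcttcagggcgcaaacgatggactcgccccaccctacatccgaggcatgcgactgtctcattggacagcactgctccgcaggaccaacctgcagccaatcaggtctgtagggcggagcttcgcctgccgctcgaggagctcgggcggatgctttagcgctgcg
Slc35c2: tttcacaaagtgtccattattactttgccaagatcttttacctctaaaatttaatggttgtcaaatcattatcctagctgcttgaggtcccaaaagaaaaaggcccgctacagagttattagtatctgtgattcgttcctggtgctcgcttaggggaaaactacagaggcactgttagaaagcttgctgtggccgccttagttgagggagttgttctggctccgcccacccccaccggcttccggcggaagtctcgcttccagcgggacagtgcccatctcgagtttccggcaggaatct
Slc7a6: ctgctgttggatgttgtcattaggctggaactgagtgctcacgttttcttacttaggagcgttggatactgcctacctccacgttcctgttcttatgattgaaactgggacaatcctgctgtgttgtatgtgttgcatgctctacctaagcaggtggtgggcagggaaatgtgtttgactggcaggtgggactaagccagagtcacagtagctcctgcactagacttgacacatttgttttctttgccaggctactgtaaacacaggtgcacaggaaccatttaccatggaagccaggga

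Over the 189 solute carrier start regions, CAGACA was found in 27, which is 14.3%, against 17.2% of the 7947 start regions of genes named on the arrays and 20.8% of all 27457. TGANTCA was found in 16, or 8.47%, against 5.44% of the genes on the arrays and 7.33% of all. The Smad palindrome GTCTAGAC was in none of the 189 and in 0.215% of all, and the cAMP response element TGACGTCA in 5, or 2.65%, against 2.77% of the genes on the arrays. The amino acid response element TGATGNAA was in 4, or 2.12%, against 2.2%, and the GC box GGGCGG in 107, or 56.6%, against 58.3%. Each motif was searched on both strands, matches of different motifs may overlap, and a match only says that these letters stand in the window. Among the 11 genes of opposite sign described below, 8 had a start region, of which 2 held CAGACA and 1 TGANTCA; Slc7a3, Slc16a5 and Slc20a2 had no entry.

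The first question was which carriers responded to TGF-beta-1 in RIE-Ras cells. Slc6a5, the sodium- and chloride-driven glycine transporter GlyT2, was the only solute carrier gene that passed the test there, and it rose. Its ratios were 1.06, 1.05, 0.79 and 1.22 on the 4 RIE-Ras arrays, and -0.12, 0.49, -0.19 and -0.55 on the 4 RIE arrays. All RIE-Ras arrays lay above all RIE arrays. The RIE-Ras mean of 1.03 ± 0.18 (SD, n = 4) is a 2.04-fold ratio of treated over control, with an adjusted p of 0.0471 in limma, while the RIE mean was -0.09 ± 0.43 (adjusted p = 0.805). The call was narrow: the adjusted p was 0.0635 with equal spread per array and 0.1255 with RIE-Ras fitted alone, and between 0.0846 and 0.119 without any 1 RIE-Ras array. In limma the 1 call among 220 genes is 0.455%, against 0.419% of all genes and features tested in RIE-Ras cells. At an unadjusted p under 0.05 there were 32 solute carrier genes, 18 higher and 14 lower, which is 14.5% against 19.3% of all features.

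Slc31a1, the high-affinity copper importer, came next in RIE-Ras cells. It stood at 0.77, 0.88, 0.81 and 0.54 on the RIE-Ras arrays, and at 0.30, 0.26, -0.07 and -0.30 on the RIE arrays. The lines did not overlap, and the RIE-Ras mean of 0.75 ± 0.15 (SD, n = 4) missed the threshold at an adjusted p of 0.0530. Slc27a5, known in liver as a bile acid and fatty acid CoA ligase, had the highest mean of all 220 genes. Its ratios were 2.69, 3.07, 2.16 and 0.49 on the RIE-Ras arrays, against -0.84, -0.06, -0.06 and -1.80 on the RIE arrays. RIE-Ras replicate 4 lay far below the other RIE-Ras arrays, the mean was 2.10 ± 1.14 (SD, n = 4; adjusted p = 0.0642), and without that array it was 2.64 with an adjusted p of 0.0498. Among the other genes positive on all 4 RIE-Ras arrays, Slc5a3, the sodium-driven myo-inositol carrier, averaged 0.63, Slc26a1, a sulfate exchanger, 0.61, Slc16a7, a high-affinity pyruvate carrier, 0.61, and Slc16a3, the lactate exporter MCT4, 0.51. None of these passed (adjusted p of 0.0896 to 0.145). Positive on all 4 RIE-Ras arrays were 23 solute carrier genes, or 10.5%, against 14.3% of all features.

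Among carriers with negative ratios on all 4 RIE-Ras arrays, the 2 with the smallest p were importers of nutrients. Slc1a5, the glutamine transporter ASCT2, stood at -0.54, -0.61, -0.41 and -0.39 in RIE-Ras cells, against 0.05, -0.38, -0.02 and -0.41 in RIE cells. Slc2a5, the fructose transporter, stood at -0.34, -0.65, -0.43 and -0.44 in RIE-Ras cells, against -0.43, 0.01, -0.06 and -0.33 in RIE cells. In both genes the lines overlapped, and the RIE-Ras means of -0.49 ± 0.11 and -0.47 ± 0.13 (SD, n = 4) had adjusted p of 0.0835 for Slc1a5 and 0.0868 for Slc2a5. Slc29a1, the equilibrative nucleoside transporter ENT1, averaged -0.40 ± 0.17 in RIE-Ras cells (adjusted p = 0.132). Slc6a6, the taurine transporter, averaged -0.45, and Slc39a3, a zinc importer, -0.39. Negative on all 4 RIE-Ras arrays were 28 solute carrier genes, or 12.7%, against 14.1% of all features.

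Several of the lowest RIE-Ras means were far lower with RIE-Ras replicate 1 than without it. Slc40a1, ferroportin, the iron exporter of enterocytes, stood at -3.24, 0.06, -0.74 and -1.63 on the RIE-Ras arrays, against 1.00, -0.24, -0.72 and -0.43 on the RIE arrays. Its RIE-Ras mean was -1.39 ± 1.42 (SD, n = 4), and -0.77 without replicate 1. Slc13a3, a dicarboxylate carrier, averaged -0.94 in RIE-Ras cells with that array and -0.44 without it. Slc38a5, a glutamine and glycine carrier, averaged -0.71 in RIE-Ras cells with that array and -0.36 without it, and Slc15a1, the intestinal peptide transporter PEPT1, -0.60 with it and -0.22 without it. Slc5a7, the choline transporter, changed sign: -0.67 with that array and 0.23 without it. RIE-Ras replicate 1 was the lowest of the 8 arrays for 53 of the 220 genes, RIE replicate 4 for 49 and RIE replicate 1 for 33. The same was not counted over all features.

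The next question was which carriers responded in the parental RIE cells. None of the 220 passed in limma, while 0.0747% of all genes and features did. At an unadjusted p under 0.05 there were 43, of which 14 were higher and 29 lower, which is 19.5% against 17.5% of all features. The smallest p belonged to Slc35c2, a Golgi carrier linked to protein fucosylation. It stood at 0.07, 0.27, 0.78 and 0.58 on the RIE-Ras arrays, against -0.81, -0.58, -1.32 and -1.52 on the RIE arrays. The lines had opposite signs on every array, and the RIE mean of -1.06 ± 0.44 (SD, n = 4) is a 0.48-fold ratio, with an adjusted p of 0.0763. It passed with equal spread per array (0.0490) and after quantile normalization (0.0171).

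Slc20a2, the sodium-driven phosphate transporter PiT-2, followed. It stood at 0.48, 0.17, 0.32 and 0.09 on the RIE-Ras arrays, against -0.37, -0.52, -0.82 and -0.86 on the RIE arrays, again of opposite sign throughout. The RIE mean was -0.64 ± 0.24 (SD, n = 4; adjusted p = 0.0930). Of the 2 features averaged for this gene, one had a mean of 0.61 in RIE-Ras cells and -1.33 in RIE cells and the other -0.08 in RIE-Ras cells and 0.04 in RIE cells, so the difference lay on 1 feature. Slc4a2, an anion exchanger, averaged -0.89 ± 0.80 in RIE cells and Slc46a2, a carrier related to the folate transporter, -0.58 ± 0.20, and both were negative on all 4 RIE arrays. Slc12a2, the chloride-importing cotransporter NKCC1, was negative on all 4 RIE arrays (-0.55 ± 0.42) and had a mean of 0.26 ± 0.24 in RIE-Ras cells. The highest RIE means were those of Slc5a7 (1.83 ± 1.79), Slc34a1, a renal phosphate cotransporter (1.49, from 0.26 to 3.47), Slc12a3, the thiazide-sensitive cotransporter of the kidney (1.27 ± 0.95), and Slc23a1, a vitamin C transporter (1.27 ± 1.29), each positive on all 4 RIE arrays. In Slc5a7 a value of 4.35 on RIE replicate 3 stood far above 0.42, 1.82 and 0.71 on the other RIE arrays. Positive on all 4 RIE arrays were 33 of the 220 genes, where 14.8% of all features were, and negative on all 4 were 34, or 15.5%, against 14.3% of all features.

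The lines were then compared directly. In limma 0.0% of all genes and features passed in the contrast RIE-Ras minus RIE, so no solute carrier could be called different between the lines. At an unadjusted p under 0.05 there were 29, of which 17 were higher in RIE-Ras cells and 12 lower, which is 13.2% against 10.7% of all features. The 4 arrays of one line did not overlap the 4 of the other for 23 genes, 14 higher in RIE-Ras cells and 9 lower, which is 10.5% against 7.5% of all features. With 1 array left out at a time, 25 to 34 genes did not overlap, against 9.05% to 13.8% of all features. For 11 genes, or 5.0% against 1.77% of all features, every RIE-Ras array had one sign and every RIE array the other. These signs are relative to the array medians, which were 0.2016 or more before centring. A centred value less than 0.2016 below 0 was therefore positive before centring. Such values occurred in RIE-Ras cells for Slc7a3 (-0.16), Slc16a5 (-0.03) and Slc25a33 (-0.09), and in RIE cells for Slc16a3 (-0.01). How many genes keep opposite signs without centring was not counted. No test was made of whether these shares exceed those of all features.

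Of those 11 genes, 7 were positive in RIE-Ras cells: Slc1a6, Slc7a6, Slc16a3, Slc20a2, Slc27a5, Slc35a3 and Slc35c2. The largest of these differences were 2.79 ± 0.60 (log2 ± SE) for Slc27a5, 1.48 ± 0.25 for Slc35c2 and 0.91 ± 0.17 for Slc20a2, each with an adjusted p of 0.228 in limma. Slc35a3, the carrier of UDP-N-acetylglucosamine into the Golgi, stood at 0.13, 0.19, 0.40 and 0.64 in RIE-Ras cells, against -0.55, -0.24, -0.33 and -0.55 in RIE cells. Both features of Slc35a3 had these signs, with means of 0.41 and 0.27 in RIE-Ras cells and -0.41 and -0.43 in RIE cells. Slc16a3 stood at 1.14, 0.47, 0.25 and 0.20 in RIE-Ras cells, against -0.35, -0.01, -0.09 and -0.24 in RIE cells. Slc1a6, a glutamate transporter best known from cerebellum and chosen here after its values were seen, averaged 0.26 in RIE-Ras cells and -0.41 in RIE cells. The difference of Slc6a5, whose RIE arrays did not share a sign, was 1.12 ± 0.23 with an adjusted p of 0.228.

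The other 4 had negative centred ratios in RIE-Ras cells: Slc2a6, Slc7a3, Slc16a5 and Slc25a33. Slc7a3, a cationic amino acid transporter, stood at -0.16, -0.33, -0.63 and -0.20 in RIE-Ras cells, against 0.38, 0.30, 0.83 and 0.29 in RIE cells. Its difference of -0.78 ± 0.18 (SE) had an adjusted p of 0.243. Slc25a33, a mitochondrial pyrimidine nucleotide carrier, averaged -0.26 in RIE-Ras cells and 0.41 in RIE cells. Slc2a6, a facilitator of the glucose family, averaged -0.19 in RIE-Ras cells and 0.42 in RIE cells, and Slc16a5, a monocarboxylate carrier, -0.15 in RIE-Ras cells and 0.37 in RIE cells. Of the 2 features averaged for Slc2a6, only 1 had opposite signs on all arrays. The other stood at 0.04, 0.14, -0.35 and -0.08 in RIE-Ras cells, against 0.07, 0.18, 0.92 and 1.62 in RIE cells. On that feature the lines overlapped. The largest negative difference among genes without overlap was that of Slc5a7 at -2.50, which includes the outlying arrays given above, followed by Slc12a3 at -2.46, with RIE-Ras values of -1.77, 0.32, -0.78 and -2.53 against 1.14, 2.62, 0.42 and 0.91 in RIE cells. Slc26a5, the motor protein prestin of outer hair cells, averaged -0.47 in RIE-Ras cells and 0.41 in RIE cells.

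**Figure D2:**
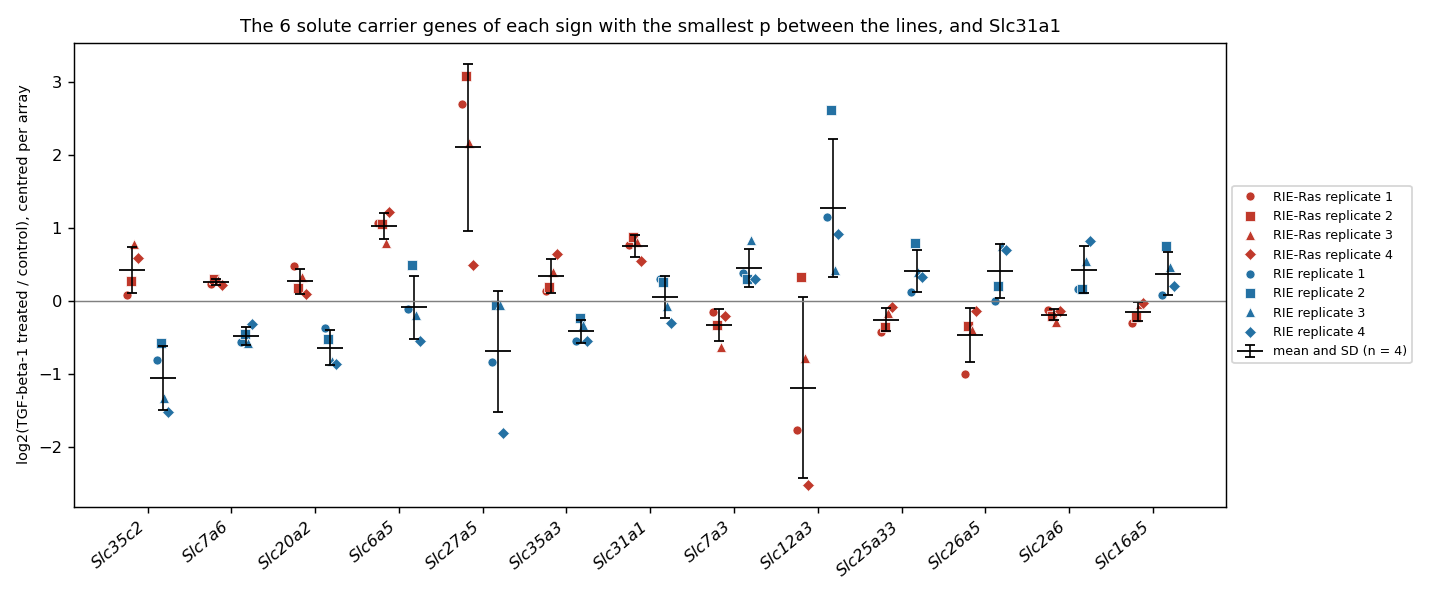
Centred log2 ratio of TGF-beta-1 treated over control (vertical axis) on each array for the 6 solute carrier genes of each sign with the smallest p between the lines and for Slc31a1, with RIE-Ras arrays in red left of RIE arrays in blue, and bars at the mean and SD of 4 arrays. Slc35c2, Slc7a6, Slc20a2 and Slc35a3 lie above 0 on every RIE-Ras array and below 0 on every RIE array, and Slc7a3, Slc25a33, Slc2a6 and Slc16a5 the other way round.

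**Figure D3:**
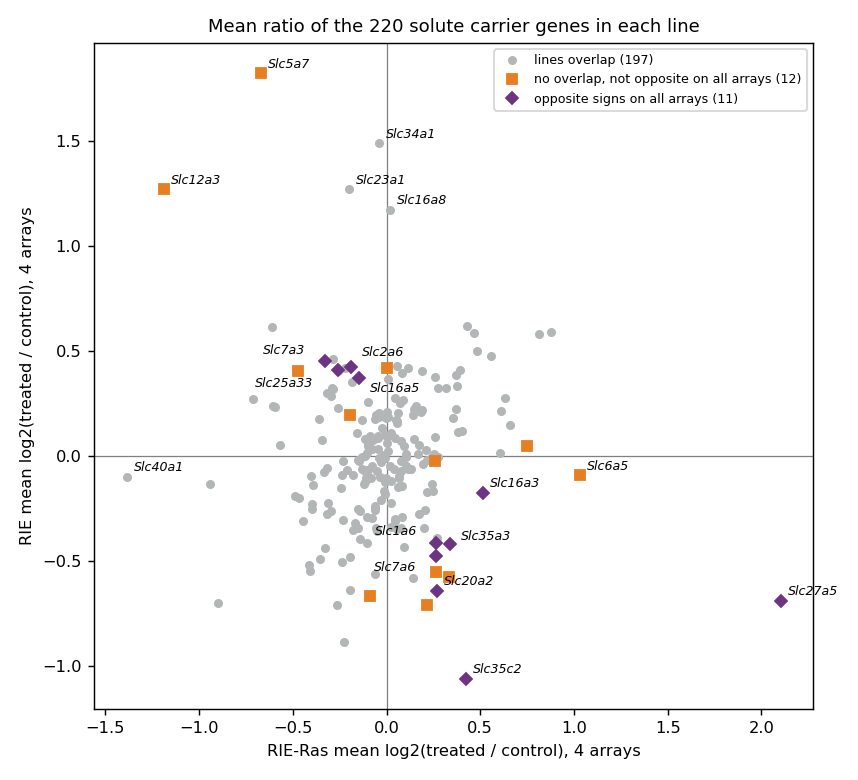
Mean log2 ratio in RIE-Ras cells (horizontal axis) against the mean in RIE cells (vertical axis) for the 220 solute carrier genes, each mean over 4 arrays. Grey points are the 197 genes whose arrays overlap between the lines, orange squares the 12 that do not overlap without being of opposite sign on all arrays, and purple diamonds the 11 of opposite sign on all arrays.

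As a whole the carriers stood close to the median of their arrays. The median of the 220 mean ratios was -0.02 in RIE-Ras cells and -0.01 in RIE cells, beside 0.01 in RIE-Ras cells and -0.01 in RIE cells for all features, and the median difference between the lines was -0.02, beside 0.04 for all features. Of the 220 genes, 102 had a positive mean in RIE-Ras cells, or 46.4% against 50.8% of all features. In RIE cells 106 had one, or 48.2% against 49.2%. With some 1 array of the line left out, the mean changed sign for 85 of the 220 genes in RIE-Ras cells and for 61 in RIE cells. Such sign changes were not counted over all features. Means beyond 1 in either direction were held by 4 genes in RIE-Ras cells, or 1.82% against 2.18% of all features. In RIE cells 6 genes held them, or 2.73% against 1.59%. Across the 220 genes, means in RIE-Ras and RIE cells had a Pearson r of -0.0489 and a Spearman rho of 0.0942, and across all 17402 genes and features these were 0.256 and 0.292. The lines shared no array, the genes are not independent replicates, and a few genes such as Slc27a5, Slc5a7 and Slc12a3 lay far from the rest.

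Among the 26 genes of the amino acid families, 6 had an unadjusted p under 0.05 in RIE-Ras cells and 8 in RIE cells. Of all features, 19.3% had one in RIE-Ras cells and 17.5% in RIE cells. None of the 26 passed after adjustment, and no test was made of these counts against those shares. The pair partners of the 4F2 complex, a heavy chain joined to one of several light chains, had unlike ratios. Slc3a2, the heavy chain, stood at -0.37, -0.30, 0.01 and 0.30 in RIE-Ras cells, against -0.47, -0.59, -0.86 and -0.74 in RIE cells. All RIE arrays lay below all RIE-Ras arrays, and the RIE mean of -0.67 ± 0.17 (SD, n = 4) had an adjusted p of 0.101. The light chain Slc7a5, the leucine transporter LAT1, stood at -0.55, -0.55, -0.35 and 0.02 in RIE-Ras cells, against 0.10, -0.69, -0.52 and -0.84 in RIE cells. The light chain Slc7a6, which exchanges cationic for neutral amino acids, stood at 0.23, 0.30, 0.29 and 0.22 in RIE-Ras cells, against -0.56, -0.45, -0.58 and -0.32 in RIE cells. The Slc7a6 arrays were the tightest of the 11 genes of opposite sign, with SDs of 0.04 in RIE-Ras cells and 0.12 in RIE cells, and the difference of 0.74 ± 0.13 (SE) had an adjusted p of 0.228. The light chain Slc7a11, the cystine importer, averaged 0.25 in RIE-Ras cells and 0.01 in RIE cells. Slc7a7 and Slc7a8, further light chains of this heavy chain, gave means of 0.06 (Slc7a7) and -0.03 (Slc7a8) in RIE-Ras cells, against 0.21 (Slc7a7) and -0.03 (Slc7a8) in RIE cells.

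Of the amino acid carriers outside that complex, Slc38a2, the system A transporter that amino acid shortage induces, was negative on every array of both lines. It averaged -0.33 ± 0.28 in RIE-Ras cells (adjusted p = 0.218 in limma) and -0.44 ± 0.19 in RIE cells (adjusted p = 0.162; SD, n = 4 each). Slc7a1, the ubiquitous arginine carrier, averaged -0.29 in RIE-Ras cells and -0.26 in RIE cells. Slc7a2, the inducible arginine carrier, stood at 2.22, 1.52, -0.31 and 0.07 in RIE-Ras cells, against 0.36, 0.18, 0.81 and 1.03 in RIE cells. The spread of Slc7a2 in RIE-Ras cells, an SD of 1.19, exceeded its mean of 0.88. Slc1a1, the epithelial glutamate carrier, was positive on all 4 RIE arrays (mean 0.48) and averaged 0.56 in RIE-Ras cells with replicate 1 at -0.86. Slc3a1, the heavy chain of the cystine carrier of kidney and gut, averaged -0.40 in RIE-Ras cells and -0.09 in RIE cells, and its RIE-Ras mean was -0.02 without RIE-Ras replicate 1.

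**Figure D4:**
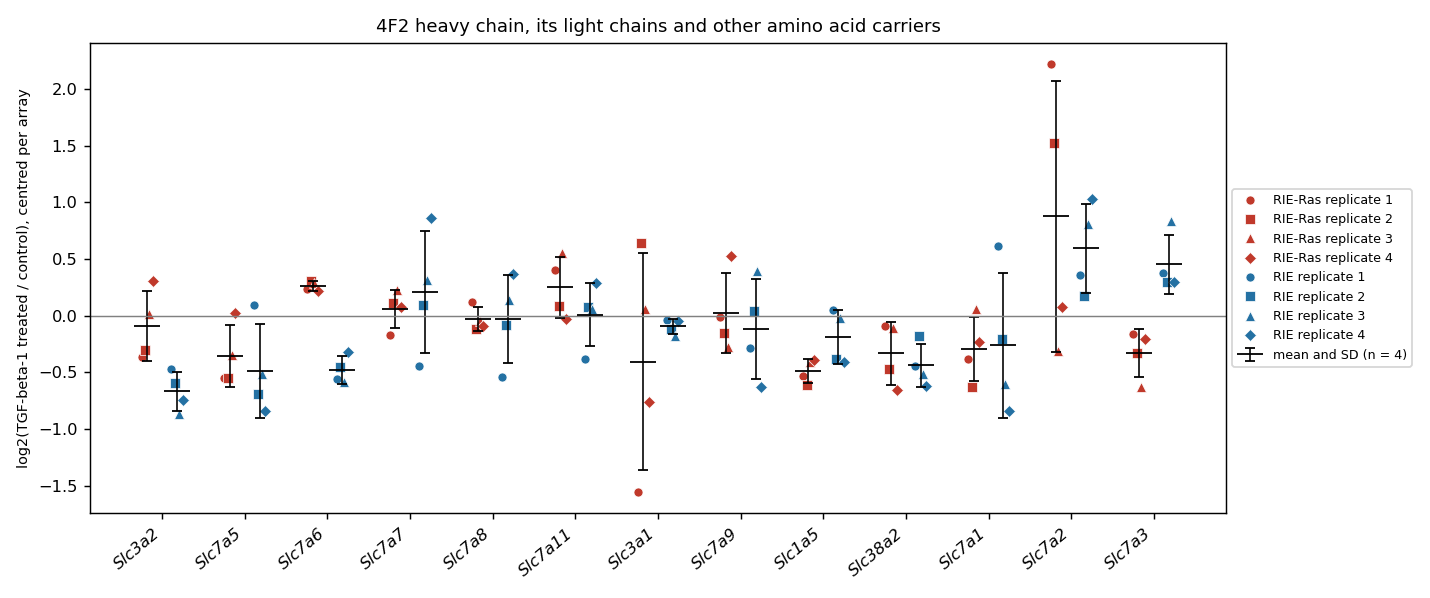
Centred log2 ratio (vertical axis) on each array for the heavy chain gene Slc3a2, its light chain genes, and other amino acid carriers, with RIE-Ras arrays in red left of RIE arrays in blue, and bars at the mean and SD of 4 arrays. Slc3a2 is lower on all RIE arrays than on all RIE-Ras arrays, Slc7a6 lies on opposite sides of 0 in the lines, and Slc38a2 is below 0 on all 8 arrays.

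The 17 genes of the Slc2, Slc5, Slc45 and Slc50 families include glucose and fructose carriers as well as carriers of other solutes, such as Slc5a3 for inositol and Slc5a7 for choline. None was called in either line or between them. Their median was -0.10 in RIE-Ras cells and 0.07 in RIE cells, and 3 of the 17 were higher in RIE-Ras than in RIE cells, where 55.4% of all features were. In the Slc2 family of facilitators 1 of 8 was, with family medians of -0.14 in RIE-Ras cells and 0.21 in RIE cells. Over the RIE-Ras arrays the median of the Slc2 family lay between -0.36 and -0.05, and over the RIE arrays between -0.10 and 0.41, so the lines overlapped, and no test was made of this difference. Slc2a2, the low-affinity glucose carrier GLUT2, stood at -0.45, -0.52, -0.16 and -0.01 in RIE-Ras cells, against -0.13, 0.13, 0.41 and 0.87 in RIE cells. Slc2a1, the general glucose transporter GLUT1, scattered from -1.57 to 1.64 in RIE-Ras cells, against 0.14 to 0.74 in RIE cells. Slc2a3 averaged -0.10 in RIE-Ras cells and 0.05 in RIE cells, and the intestinal sodium-glucose cotransporter Slc5a1 averaged 0.07 in RIE-Ras cells and 0.25 in RIE cells. Slc2a8, an intracellular facilitator, was negative on all 4 RIE arrays with a mean of -0.48, and averaged -0.20 in RIE-Ras cells.

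The 13 genes of the Slc35 family include nucleotide sugar carriers, which supply the Golgi and endoplasmic reticulum with activated sugars, and orphan members. Of these, 6 had a negative mean in RIE-Ras cells and 12 in RIE cells, while of all features 50.8% had a positive mean in RIE-Ras cells and 49.2% in RIE cells. The family median was 0.02 in RIE-Ras cells and -0.22 in RIE cells. It lay between -0.09 and 0.40 on the RIE-Ras arrays and between -0.41 and -0.12 on the RIE arrays. The 4 RIE-Ras and the 4 RIE values of the family median thus did not overlap, by the narrow gap from -0.12 to -0.09. No other of the 23 families with 4 or more measured genes was separated in this way, while 7.5% of all single genes and features were. The difference was not tested. Slc35c2 and Slc35a3 had the largest differences, and 10 of the 13 genes were higher in RIE-Ras than in RIE cells, beside 55.4% of all features. Slc35f5, an orphan member, averaged 0.24 in RIE-Ras cells and lay between -0.08 and 0.05 on the RIE arrays. Of the nucleoside carriers, Slc29a2 averaged 0.18 in RIE-Ras cells and 0.21 in RIE cells. Slc28a3 averaged 0.48 in RIE-Ras cells and 0.50 in RIE cells, and its RIE-Ras mean was -0.15 without RIE-Ras replicate 3, which stood at 2.37.

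**Figure D5:**
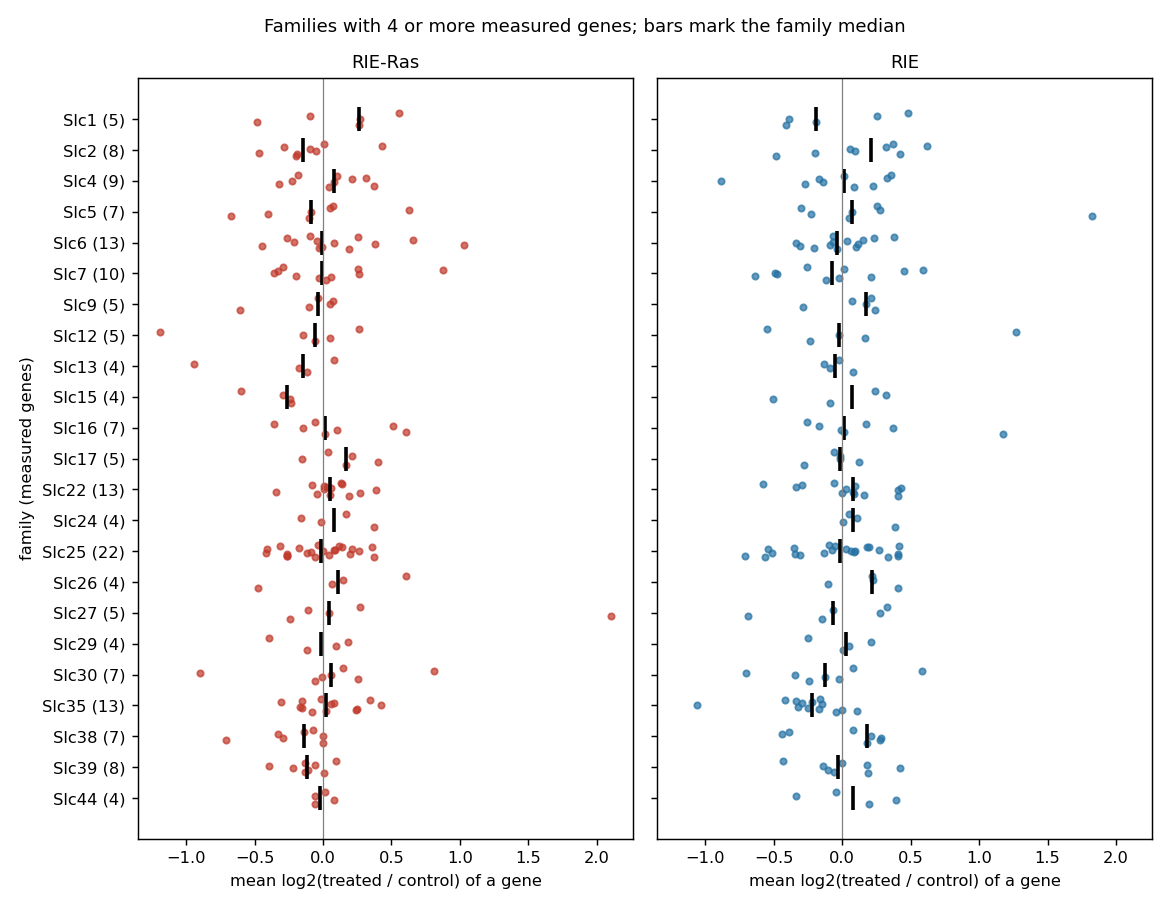
Mean log2 ratio of each gene (horizontal axes) in RIE-Ras cells, left, and RIE cells, right, for the 23 families with 4 or more measured genes (vertical axis, number of genes in parentheses), with a black bar at the family median. The Slc35 median lies at 0.02 in RIE-Ras cells and -0.22 in RIE cells, and the Slc2 median at -0.14 in RIE-Ras cells and 0.21 in RIE cells.

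Metal carriers were 21 genes, of which 5 had an unadjusted p under 0.05 in RIE-Ras cells and 2 in RIE cells. The shares of all features were 19.3% in RIE-Ras cells and 17.5% in RIE cells. Apart from Slc31a1 and Slc40a1, Slc11a2, the intestinal ferrous iron importer DMT1, averaged 0.20 in RIE-Ras cells and -0.26 in RIE cells, with RIE replicate 2 at -1.39 and a RIE mean of 0.12 without it. Slc30a1, the zinc exporter of the plasma membrane, stood at -0.79, 0.51, 0.49 and 0.37 in RIE-Ras cells, with replicate 1 alone below zero, against -0.31 to 0.61 in RIE cells. Slc30a3, a vesicular zinc carrier, averaged -0.90 in RIE-Ras cells and -0.70 in RIE cells, and its 2 features differed by 1.65 in RIE-Ras cells. Slc39a4, the intestinal zinc importer, averaged -0.22 ± 0.81 in RIE-Ras cells and 0.42 ± 0.30 in RIE cells, positive on all 4 RIE arrays, and its RIE-Ras mean was 0.11 without RIE-Ras replicate 1. The zinc exporters of the Slc30 family had medians of 0.06 in RIE-Ras cells and -0.12 in RIE cells, and the zinc importers of the Slc39 family -0.12 in RIE-Ras cells and -0.03 in RIE cells.

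Mitochondrial carriers, the Slc25 family, were the largest family with 22 genes. Their median was -0.02 in RIE-Ras cells and -0.01 in RIE cells, and 11 of 22 were positive in each line. An unadjusted p under 0.05 was held by 1 gene in RIE-Ras cells and 6 in RIE cells. Of all features, 19.3% held one in RIE-Ras cells and 17.5% in RIE cells. Slc25a3, the phosphate carrier, and the ADP/ATP carriers Slc25a4 and Slc25a5 stood at -1.88, -1.92 and -1.75 on RIE replicate 4 and at 0.59, 0.17 and 0.65 on RIE replicate 1. The RIE means of these 3 genes were -0.52 ± 1.02, -0.71 ± 0.88 and -0.56 ± 1.00 (SD, n = 4), so the spread between arrays exceeded each mean. In RIE-Ras cells, Slc25a3 was negative on all 4 arrays (-0.42 ± 0.19), as was Slc25a4 (-0.26 ± 0.12), while Slc25a5 averaged -0.06. Slc25a25, a calcium-regulated ATP and phosphate exchanger, averaged 0.00 in RIE-Ras cells and 0.06 in RIE cells, and Slc25a44, a carrier of branched-chain amino acids, averaged 0.37 in RIE-Ras cells and 0.33 in RIE cells. Without RIE-Ras replicate 4, which stood at 1.55, the Slc25a44 mean in RIE-Ras cells was -0.02.

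The 29 ion carriers of the bicarbonate, proton, chloride and calcium families had medians of 0.05 in RIE-Ras cells and 0.07 in RIE cells. An unadjusted p under 0.05 was held by 5 of them in RIE-Ras cells, beside 19.3% of all features. In RIE cells it was held by 6, beside 17.5% of all features. Slc24a4, a calcium exchanger, was positive on every array of both lines, with means of 0.37 in RIE-Ras cells and 0.39 in RIE cells. Slc4a11, a proton-conducting member of the bicarbonate family, averaged 0.31 in RIE-Ras cells and 0.32 in RIE cells, and its RIE-Ras mean was 0.11 without RIE-Ras replicate 3, which stood at 0.92. Slc9a3, the sodium-proton exchanger of the intestinal brush border, averaged 0.07 in each line, and Slc8a1, the sodium-calcium exchanger, averaged 0.10 in RIE-Ras cells and -0.04 in RIE cells. Slc4a4, a sodium bicarbonate cotransporter, averaged -0.32 ± 0.81 in RIE-Ras cells and -0.27 ± 0.60 in RIE cells (SD, n = 4 each), and 0.02 in RIE-Ras cells without RIE-Ras replicate 1.

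Carriers of organic acids and peptides differed among themselves. Slc16a1, the lactate carrier MCT1, averaged -0.06 ± 0.20 in RIE-Ras cells and -0.26 ± 0.15 in RIE cells, negative on all 4 RIE arrays, whereas Slc16a3 and Slc16a7 of the same family were positive on all 4 RIE-Ras arrays. Slc16a8 scattered from -2.55 to 3.40 in RIE-Ras cells and from -0.12 to 3.72 in RIE cells. Slc10a2, the ileal bile acid transporter, lay near zero in RIE-Ras cells (-0.01 ± 0.07) and at -0.10 ± 0.24 in RIE cells. The 4 peptide carriers of the Slc15 family all had negative means in RIE-Ras cells, from -0.60 for Slc15a1 to -0.24 for Slc15a3 and Slc15a4, with a family median of -0.27 there and 0.07 in RIE cells. Without RIE-Ras replicate 1 that median was -0.22. Slc15a3, a lysosomal member, was also negative on all 4 RIE arrays at -0.51 ± 0.36. Slc19a1, the reduced folate carrier, averaged 0.19 in RIE-Ras cells and 0.22 in RIE cells, and -0.065 in RIE-Ras cells without RIE-Ras replicate 3, which stood at 0.96.

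Proteins that partner or regulate carriers were listed separately, with earlier results of these data known, and 24 of 28 were measured. In limma none passed in either line or between them. An unadjusted p under 0.05 was held by 7 in RIE-Ras cells and 7 in RIE cells, beside 19.3% of all features in RIE-Ras cells and 17.5% in RIE cells, and by 6, all higher in RIE-Ras cells, between the lines, beside 10.7% of all features. Bsg, basigin, the chaperone that takes MCT1 and MCT4 to the membrane, was negative on all arrays, with means of -0.55 in RIE-Ras cells (adjusted p = 0.12 in limma) and -0.72 in RIE cells (adjusted p = 0.11). Sgk1, a kinase that raises the surface level of many carriers, averaged 0.13 in RIE-Ras cells and -0.31 in RIE cells. Nfe2l2, the oxidative stress factor that drives Slc7a11, stood at 0.69, 0.36, 0.41 and 0.18 in RIE-Ras cells, against 0.12, 0.02, -0.35 and -0.57 in RIE cells. Of the amino acid response genes, 18 of 22 were measured, and none passed in limma in any comparison. An unadjusted p under 0.05 was held by 2 in RIE-Ras cells, 5 in RIE cells and 1 between the lines. The shares of all features were again 19.3% in RIE-Ras cells, 17.5% in RIE cells and 10.7% between the lines. Their medians were -0.13 in RIE-Ras cells and -0.19 in RIE cells. Eif2ak4, the kinase GCN2 that senses uncharged tRNA, chosen after its values were seen, was positive on all RIE-Ras arrays at 0.67, 0.40, 0.37 and 0.14, and negative on all RIE arrays at -0.23, -0.22, -0.20 and -0.29.

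The arrays carried more than 1 feature for 43 of the 220 genes, and the features of a gene often disagreed. In each line 23 of the 43 genes had features whose means were of opposite sign. The median gap between a gene's highest and lowest feature was 0.257 in RIE-Ras cells and 0.285 in RIE cells, and 7 genes had a gap above 1 in either line. Averages of such genes, Slc2a1, Slc20a2 and Slc30a3 among those named, therefore hide unlike features.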

How the data were processed

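The deposited values are log2 ratios: per the labels each compares, on one array, treated RNA (channel 2) with control RNA (channel 1), and the log2 scale was found from the values, which give folds that are whole multiples of 0.01. Dyes, background correction, normalization, centring and spot filters by the authors are not given in the labels or the file header. Since no dye swap is mentioned, a dye effect cannot be told apart from the treatment within a line. Features were named through the platform annotation, with symbols matched by gene identifier to RefSeq genes of GRCr8 for all 272 solute carrier features. Here each array was centred on its median, features of one symbol were averaged, and all 8 arrays were fitted in R 4.3.3 with limma 3.58.1 (lmFit, eBayes; one mean per line, and RIE-Ras minus RIE), with 6 residual and 2.71 prior degrees of freedom. Tests were two-sided and Benjamini-Hochberg adjusted over all 17402 genes and features at 0.05. An SE is the moderated one of this fit, whose spread both lines share, and an SD is over the 4 arrays of a line. The script was checked on simulated data. Named genes were those past the threshold, the 8 highest and 8 lowest of one sign on all 4 arrays of a line, the 6 of each sign with the smallest p between lines, the extremes of families with 4 or more genes, and a fixed set of 39 carriers of which 35 were measured; this gave 89 genes, of which most are given. Genes of opposite sign on all arrays, the light chains Slc7a7 and Slc7a8, and the genes named from the other lists were picked after their values were seen. The members and lists were chosen with earlier results of these data known. The number of arrays limits the precision, and no intensities were used.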

Additional observations from a re-analysis of the deposited data

Results flagged for a closer look

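Dixon's test at the 95% level was applied to 212 groups of 4 values, and 9, or 4.25%, passed it, where chance marks about 1 in 20. In 4 of the 9 the array apart from the rest was RIE-Ras replicate 1. The share of solute carrier genes below -1 was 13.6% on that array and 0.455% to 1.82% on the other RIE-Ras arrays. On it Slc5a7 stood at -3.36, against 0.153 to 0.302 on the other RIE-Ras arrays, Slc30a1 at -0.787, against 0.374 to 0.515, and Slc22a13, an organic anion carrier, at 0.378, against 0.0469 to 0.0661. On RIE-Ras replicate 2 Slc15a2, the renal peptide transporter PEPT2, stood at 0.846 with the other RIE-Ras arrays at -0.787 to -0.573. On RIE-Ras replicate 4 the median of the 5 genes in no other role group was 0.132, with the other RIE-Ras arrays at -0.21 to -0.195.

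In RIE cells 3 genes had an array apart. Slc24a4 stood at 0.163 on RIE replicate 1, with the others at 0.44 to 0.477. Slc8a1 stood at 0.281 on RIE replicate 2, with the others at -0.203 to -0.129. Slc7a3 stood at 0.834 on RIE replicate 3, with the others at 0.294 to 0.378, so its positive sign in RIE cells did not rest on that array.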

How the results depend on the processing

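The count of solute carrier genes called in RIE-Ras cells, 1 as reported, was 29 without centring (13.2%, against 21.0% of all features), 0 with equal spread per array, after quantile normalization or with the line fitted alone, 2 without features at repeated fold values, 7 at an adjusted p under 0.10 (3.18%, against 3.87%), and 0 to 2 with an array left out. It was 0 without RIE-Ras replicates 1, 2 or 3 and without RIE replicates 2, 3 or 4, and 2 without RIE replicate 1. In RIE cells the count of 0 became 46 without centring (20.9%, against 23.3% of all features), 1 with equal spread, 2 after quantile normalization, 1 with each feature on its own, 83 with array weights (37.7%, against 37.6%), where the weight of RIE replicate 3 was 8.7, and 3 at an adjusted p under 0.10 (1.36%, against 0.759%); it was 0 with any array left out. Between the lines the count of 0 became 6 with array weights (2.73%, against 0.77% of all features, a difference that was not tested) and stayed 0 with any array left out. Without centring the median of all features moved to 0.29 in RIE-Ras cells and 0.35 in RIE cells. That of the solute carrier genes moved to 0.27 in RIE-Ras cells, 0.35 in RIE cells and -0.089 for the difference. All means of a line then rose by the same amount, so means slightly below 0 became positive. Slc35f5 in RIE cells was one of these, at 0.35, and was also called (adjusted p = 0.0476 in limma). Sign changes of genes that stayed uncalled were not counted. With an array left out the solute carrier median ran from -0.0417 to 0.0231 in RIE-Ras cells (0.0231 without RIE-Ras replicate 1), from -0.0182 to 0.0179 in RIE cells, and from -0.028 to 0.0673 for the difference (0.0673 without RIE-Ras replicate 1). Slc6a5 in RIE-Ras cells lost its call with array weights too (adjusted p = 0.0504) and without RIE replicates 2, 3 or 4, and its adjusted p ran from 0.0071 to 0.1255 over all alternatives. Of 2796 values of named genes under the alternatives, 2638 were counted as unchanged. A called gene had to stay called with its sign. An uncalled gene had to stay uncalled and move by less than its SD between arrays, whatever its sign. Several alternatives do not alter the mean, and leaving out 1 of 4 arrays cannot move a mean by that SD. The count was therefore largely fixed in advance and does not measure how stable the values are. With the replicate number as a block, 0 solute carrier genes were called between the lines. After the mean of each line was taken off, same-numbered arrays correlated at -0.0540 to 0.0654 over all features. Arrays of unlike number correlated at -0.15 to 0.179. The labels do not say whether equal numbers share an experiment, and these values cannot decide it. The causes of these changes were not tested beyond what each alternative itself alters.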

Other observations

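Carriers and pumps outside the Slc families were also measured, and in limma none of them passed in any comparison. An unadjusted p under 0.05 was held by 19.3% of all features in RIE-Ras cells, 17.5% in RIE cells and 10.7% between the lines. Among 36 ABC transporters, ATP-driven exporters of drugs and lipids, 4 held one in RIE-Ras cells, 6 in RIE cells and 2 between the lines. Abcb1a, the multidrug exporter P-glycoprotein, was positive on all 4 RIE-Ras arrays at 0.85, 0.44, 1.54 and 0.14, against -0.45, 0.39, 0.74 and 0.13 in RIE cells. Abcg2, the exporter known as breast cancer resistance protein, averaged -1.23 in RIE-Ras cells with replicate 1 at -2.87, and 0.20 in RIE cells. Among 9 organic anion transporters named Slco, none had an unadjusted p under 0.05 in RIE-Ras cells or between the lines and 2, both higher, had one in RIE cells: Slco2b1 with a mean of 0.49 and Slco4a1 with 0.60.

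Of 35 ion pump subunits, 7 had an unadjusted p under 0.05 in RIE-Ras cells, beside 19.3% of all features. In RIE cells 5 had one, all lower, beside 17.5% of all features, and between the lines 3, beside 10.7%. Subunits of the proton pump that acidifies lysosomes were among those lower in RIE cells: Atp6v0b stood at -0.06, -0.43, -0.24 and -0.45 in RIE-Ras cells, against -0.53, -0.54, -0.34 and -0.48 in RIE cells, and Atp6v0c averaged -0.46 in RIE-Ras cells and -0.69 in RIE cells. Atp6v0a1, another subunit of that pump, was positive on all 8 arrays, with means of 0.37 in RIE-Ras cells and 0.18 in RIE cells. Atp1b3, a beta subunit of the sodium pump, was negative on all 8 arrays, averaging -0.77 in RIE-Ras cells and -0.37 in RIE cells.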
